A study of Mus musculus with 19 samples.

Results

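The genes described here encode the nuclear subunits of oxidative phosphorylation and a few of their assembly factors. They were chosen by symbol from the protein-coding genes of the mouse annotation: symbols that start with Nduf, Uqcr, Cox4i, Cox5, Cox6, Cox7, Cox8 or Atp5, together with Sdha, Sdhb, Sdhc, Sdhd and Cyc1. Of 21000 protein-coding genes with a curated RefSeq transcript, 96 were members. They comprised 7 core subunits, 31 accessory subunits and 8 assembly factors of complex I, 4 subunits of complex II, 9 of complex III, 20 of complex IV and 17 of complex V. Ndufa4 and Ndufa4l2 were counted with complex IV, where their products are found. Ndufb4c was kept as RefSeq gives it, although GENCODE M21 lists it as a processed pseudogene.

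The respiratory chain of the inner mitochondrial membrane passes electrons from NADH through complex I, or from succinate through complex II, to complex III, cytochrome c and complex IV, where oxygen is reduced. Complexes I, III and IV pump protons, and complex V, the ATP synthase, uses the gradient to make ATP. Most subunits are encoded in the nucleus, and several of complex IV exist as paired genes, of which 1 is used widely and the other in muscle, lung or male germ cells. In the testis, germ cells switch from the widely used genes to testis isoforms of respiratory and glycolytic proteins as meiosis and spermiogenesis proceed. NRF1, the ETS factor GABP and YY1 are known regulators of nuclear respiratory genes.

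The study examined the transcription factors ZBTB16, SALL4 and SOX3 in undifferentiated spermatogonia of the mouse. The files used here were 2 SOX3 ChIP-seq peak lists and 2 SOX3 ChIP-nexus peak lists, 1 for each of 2 replicates, from whole testis of mice at postnatal day 7, with no mutation or treatment named in the labels. According to the study's methods, the replicates were independent biological samples and the chromatin came from seminiferous tubules of several mice. These hold Sertoli cells beside germ cells, so the lists alone cannot assign a peak to a cell type. The study treats SOX3 as specific to undifferentiated spermatogonia within the testis, and reports its immunofluorescence in them at postnatal day 7. The labels name a pair of SOX3 antibodies, from Santa Cruz Biotechnology and EMD Millipore, for these libraries. ChIP-seq peaks were called in each replicate separately, and a peak was assigned to a gene here when it lay within 2 kb of a transcription start site. The lists held 58351 and 38832 ChIP-seq peaks for replicates 1 and 2. The lists give no read counts, so the reads behind a peak are unknown, although the study's reporting summary lists more sequenced and more unique reads for the second ChIP-seq replicate than for the first. Every library enters as 1 value.

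The promoters that carry the comparisons are shown here, each from 250 bases before to 50 bases after a RefSeq start site, in GRCm38 (mm10) coordinates and 5′ to 3′ on the strand of the gene. The RefSeq promoter table held 82 promoters of 77 of the 96 members. Cox8a, Cox6b1 and Cox7b encode complex IV subunits used in most tissues, Cox6b2 and Cox7b2 are testis isoforms, and Cox8b is the muscle isoform of Cox8a. The promoters of these pairs differ in their density of CpG dinucleotides, and every CpG is in capitals.

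Cox8a (chr19:7217567-7217866, minus strand): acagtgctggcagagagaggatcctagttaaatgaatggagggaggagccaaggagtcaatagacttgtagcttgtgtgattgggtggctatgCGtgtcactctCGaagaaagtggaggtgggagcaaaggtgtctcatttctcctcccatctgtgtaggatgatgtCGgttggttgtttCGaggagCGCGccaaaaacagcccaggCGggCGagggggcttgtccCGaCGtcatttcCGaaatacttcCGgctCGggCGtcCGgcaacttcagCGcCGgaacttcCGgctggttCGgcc
Cox8b (chr7:140900397-140900696, minus strand): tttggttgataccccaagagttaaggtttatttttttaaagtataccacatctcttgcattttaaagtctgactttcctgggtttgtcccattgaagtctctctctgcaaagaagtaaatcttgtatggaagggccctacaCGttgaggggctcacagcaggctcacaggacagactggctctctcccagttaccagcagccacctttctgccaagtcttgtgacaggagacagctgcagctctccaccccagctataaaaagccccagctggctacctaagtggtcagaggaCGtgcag
Cox6b1 (chr7:30626065-30626364, minus strand): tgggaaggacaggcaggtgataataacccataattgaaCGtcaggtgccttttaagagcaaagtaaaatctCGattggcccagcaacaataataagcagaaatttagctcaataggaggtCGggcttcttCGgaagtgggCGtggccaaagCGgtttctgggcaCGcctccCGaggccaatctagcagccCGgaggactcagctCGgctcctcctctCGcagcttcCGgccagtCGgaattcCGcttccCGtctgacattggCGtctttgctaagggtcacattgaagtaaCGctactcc
Cox6b2 (chr7:4753045-4753344, minus strand): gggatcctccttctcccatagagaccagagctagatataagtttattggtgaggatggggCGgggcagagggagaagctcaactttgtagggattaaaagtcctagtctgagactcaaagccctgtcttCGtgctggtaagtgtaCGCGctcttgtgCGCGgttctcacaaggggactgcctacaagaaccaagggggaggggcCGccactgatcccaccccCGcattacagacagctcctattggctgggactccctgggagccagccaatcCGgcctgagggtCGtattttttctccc
Cox7b (chrX:106015450-106015749, plus strand): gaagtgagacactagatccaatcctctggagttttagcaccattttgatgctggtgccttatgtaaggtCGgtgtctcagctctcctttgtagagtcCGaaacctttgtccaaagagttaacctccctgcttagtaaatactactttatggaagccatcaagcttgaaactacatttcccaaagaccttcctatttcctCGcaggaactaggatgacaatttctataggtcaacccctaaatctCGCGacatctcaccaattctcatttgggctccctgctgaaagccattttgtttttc
Cox7b2 (chr5:71548156-71548455, minus strand): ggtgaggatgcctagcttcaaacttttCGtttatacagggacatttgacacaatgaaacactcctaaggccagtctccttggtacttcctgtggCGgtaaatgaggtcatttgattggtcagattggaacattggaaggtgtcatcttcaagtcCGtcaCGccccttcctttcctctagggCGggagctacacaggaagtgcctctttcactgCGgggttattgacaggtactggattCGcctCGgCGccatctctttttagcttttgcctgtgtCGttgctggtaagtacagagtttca

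The Cox8a promoter held 19 CpG, an observed to expected ratio of 0.84, and that of Cox8b held 2, a ratio of 0.11. The promoters of Cox6b1 and Cox6b2 held 17 and 10 CpG, with ratios of 0.81 and 0.43. Cox7b, on the X chromosome, held 5 CpG and a ratio of 0.37, below the 10 CpG and 0.56 of its testis partner Cox7b2. The next 4 promoters show matches to the letters of known respiratory gene regulators and of SOX proteins, in capitals. Atp5j and Sdhd encode subunits of complexes V and II, Ndufs6 an accessory subunit of complex I and Cox7a2 a subunit of complex IV.

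Atp5j (chr16:84834927-84835226, minus strand): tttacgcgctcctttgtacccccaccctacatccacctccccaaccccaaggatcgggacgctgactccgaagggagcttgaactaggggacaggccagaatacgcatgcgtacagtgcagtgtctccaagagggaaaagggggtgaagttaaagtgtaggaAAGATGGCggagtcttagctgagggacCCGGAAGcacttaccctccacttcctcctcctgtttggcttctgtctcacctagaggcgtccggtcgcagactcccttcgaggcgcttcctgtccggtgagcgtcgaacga
Sdhd (chr9:50603800-50604099, minus strand): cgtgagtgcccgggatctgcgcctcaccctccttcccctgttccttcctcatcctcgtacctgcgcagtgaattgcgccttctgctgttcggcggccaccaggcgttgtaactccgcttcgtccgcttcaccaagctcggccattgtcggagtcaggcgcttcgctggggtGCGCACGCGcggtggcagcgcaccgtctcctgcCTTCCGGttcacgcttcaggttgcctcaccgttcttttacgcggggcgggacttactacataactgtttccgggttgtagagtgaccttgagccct
Ndufs6 (chr13:73328433-73328732, minus strand): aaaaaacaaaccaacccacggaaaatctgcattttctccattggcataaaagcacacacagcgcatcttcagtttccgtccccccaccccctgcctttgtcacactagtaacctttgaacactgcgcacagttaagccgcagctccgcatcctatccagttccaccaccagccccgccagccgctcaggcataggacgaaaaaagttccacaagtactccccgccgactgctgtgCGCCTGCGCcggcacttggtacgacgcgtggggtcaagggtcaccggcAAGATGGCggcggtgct
Cox7a2 (chr9:79759804-79760103, minus strand): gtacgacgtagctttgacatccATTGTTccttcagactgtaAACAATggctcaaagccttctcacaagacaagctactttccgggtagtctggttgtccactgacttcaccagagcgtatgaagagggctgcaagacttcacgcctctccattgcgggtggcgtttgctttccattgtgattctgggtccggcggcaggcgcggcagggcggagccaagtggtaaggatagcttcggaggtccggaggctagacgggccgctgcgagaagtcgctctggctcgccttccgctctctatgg

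With the start site as position 0, Atp5j had the YY1 letters AAGATGGC from -88 and the ETS letters CCGGAAG from -61. Sdhd had the NRF1 letters GCGCANGCG from -79 and the ETS letters, on the other strand, from -46. Ndufs6 had the NRF1 letters from -15 and the YY1 letters from 33, downstream of the start site. Cox7a2 held the SOX letters AACAAT on both strands, from -228 and from -209. A match is a description of the letters and not a site of binding.

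SOX3 peaks lay at the promoters of most nuclear respiratory genes. Replicate 1 listed a promoter peak for 91 of the 96 members (94.8%) and replicate 2 for 88 (91.7%), a mean of 93.2% ± 2.21 (SD, n = 2). Over all protein-coding genes the shares were 67.8% and 60%, a mean of 63.9% ± 5.53. The members exceeded all protein-coding genes by 26.9 percentage points within replicate 1 and by 31.6 within replicate 2. Both replicates had a promoter peak at 87 members (90.6%), against 57.9% of all protein-coding genes. At all 87, the peaks of the replicates overlapped by at least 50% of the narrower one, and at 85 the peak covered a start site in both. A further 5 members had a promoter peak in 1 replicate and 4 had none. With 2 replicates, a two-sided exact sign-flip test cannot give a p below 0.5, so no share was tested.

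The members also belong to a class of promoters that was occupied widely. Among the genes in the promoter table, 50 of 77 members (64.9%) had a CpG-rich promoter, defined as an observed to expected ratio of at least 0.6 with a GC content of at least 55%, against 45.2% of protein-coding genes. Of all CpG-rich protein-coding genes, 90% had a promoter peak in both replicates, and of the CpG-rich members 49 of 50 (98.0%). The 90.6% of all members was close to this 90%. Genes of the protein synthesis machinery gave like counts. Of the mitochondrial ribosomal protein genes, 77 of 78 (98.7%) had a peak in both replicates, and of the cytosolic ribosomal protein genes all 76 of 76 did.

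The strength of the peaks was read from the q score, a negative log10 of the FDR-adjusted p-value scaled up by 10, which starts at 30 in both lists. The median q score of the 96 members, with a member without a peak set to 0, was 178 in replicate 1 and 79.7 in replicate 2, and that of all protein-coding genes was 85.9 and 42.6. Where both replicates had a peak, the score of replicate 1 exceeded that of replicate 2 by a median ratio of 2.15 at the members, in 87 of 87 of them, and of 2.30 over 12162 protein-coding genes. To compare across lists, each gene was given its percentile of q score among the 21000 protein-coding genes. The median percentile of the members was 67.4 in replicate 1 and 69.7 in replicate 2, or 68.5 ± 1.63 (SD, n = 2). CpG-rich protein-coding genes lay higher, with median percentiles of 72.8 and 72.8 and median q scores of 211 and 86.4. The CpG-rich members were close to these, with 72.1 and 72.8 and q scores of 206 and 86.9. The members thus scored above all protein-coding genes but not above genes with like promoters. Of the members, 84 (87.5%) were above percentile 50 in both replicates, against 45.5% of protein-coding genes. At the top of the scale, 4 members (4.17%), Atp5b, Atp5d, Ndufa7 and Uqcrh, were above percentile 90 in both, against 7.16% of protein-coding genes. In single lists, 9 members were above percentile 90 in replicate 1 and 10 in replicate 2.

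The log2 ratio of the promoter peak, ChIP over input as read from the layout of the lists, had a slightly lower median at the members in both replicates. The median over members with a peak was 3.64 in replicate 1 and 2.54 in replicate 2, or 3.09 ± 0.78 (SD, n = 2). Over protein-coding genes with a peak it was 3.70 and 2.70, or 3.20 ± 0.71. Within replicates, the median of the members was different by -0.07 in replicate 1 and -0.17 in replicate 2 from that of protein-coding genes, which was not tested. Members ranged from 2.35 to 5.66 in replicate 1 and from 1.58 to 3.55 in replicate 2. The extremes were not shared. Uqcrc1, a core protein of complex III, had the highest ratio in replicate 1, 5.66, and 3.15 in replicate 2, whereas Cox8a had the highest ratio in replicate 2, 3.55, and 3.31 in replicate 1. Cox8a was the 1 member of the 87 with the higher ratio in replicate 2.

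**Figure D1:**
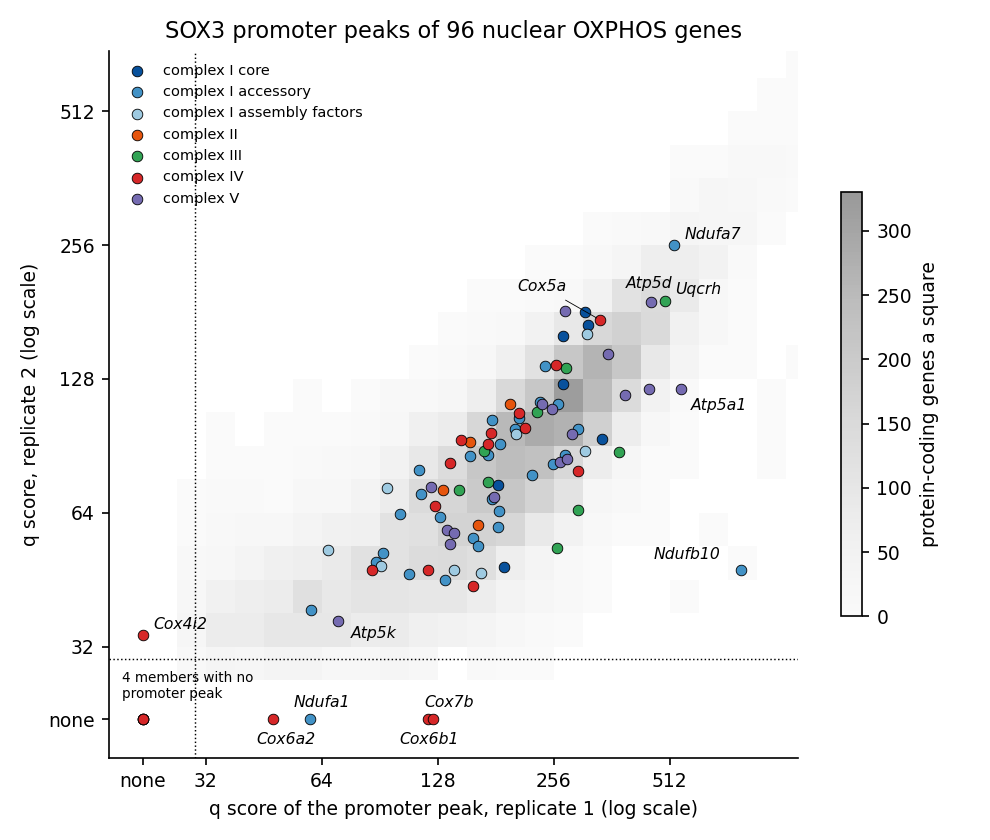
Each point is 1 of the 96 members, coloured by complex, at the q score of its promoter peak in replicate 1 (x axis) and replicate 2 (y axis), both on log scales, with "none" for no promoter peak. Grey squares count the 12162 protein-coding genes with a peak in both lists, dotted lines mark the minimum of 30, and members lie along the diagonal of all genes, with Ndufb10 far to the right of it at 785 and 47.7.

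The order of the members by q score was similar in both replicates. Spearman's rho over the 87 members occupied in both was 0.72, and over the 12162 protein-coding genes it was 0.836. For the log2 ratio it was 0.438 over the members. These are descriptions across genes of the same libraries, and neighbouring genes can share a peak. Wider peaks tended to have higher scores, with a rho of width and q score of 0.494 over the 91 peaks of replicate 1 and 0.596 over the 88 of replicate 2.

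Complexes I, II, III and V were occupied nearly throughout. The share with a peak in both replicates was 57.9% over all protein-coding genes and 90% over CpG-rich ones. Near-full counts in such small groups were therefore not read as a trait of a complex. All 7 core subunits and all 8 assembly factors of complex I, all 4 subunits of complex II, all 9 of complex III and all 17 of complex V had a promoter peak in both replicates. Of the 31 accessory subunits of complex I, 29 did. The exceptions were Ndufa1, an X-linked membrane subunit with a q score of 59.7 in replicate 1 and no peak in replicate 2, and Ndufb4c. In complex IV the count was 13 of 20 (65.0%), with 4 genes occupied in 1 replicate and 3 in neither. Without the 8 isoform genes of testis, muscle, lung or hypoxia, 10 of the remaining 12 genes of complex IV (83.3%) were occupied in both and all 12 in replicate 1. Without them, the count over all complexes was 84 of 88 (95.5%).

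Within the occupied complexes, the level of the scores differed. The median percentile of the core subunits of complex I was 81.8 in replicate 1 and 86.3 in replicate 2, or 84.1 ± 3.23 (SD, n = 2). It was 78.8 ± 3.26 for complex V, 76.7 ± 5.24 for complex III, 67.2 ± 4.92 for complex II, 66.4 ± 1.01 for the accessory subunits of complex I, 62.0 ± 0.963 for its assembly factors and 58.6 ± 0.328 for complex IV. The core subunits lay above the accessory subunits and assembly factors in both replicates, by more than the spread between replicates. Complexes V and III followed the core in both replicates, but in replicate 1 the medians of the 3 groups, 81.8, 81.1 and 80.5, lay within 1.31 of each other. Without these 8 isoform genes, complex IV had medians of 66.7 and 75.0, within the range of the other complexes. A higher q score minimum of 60 set the groups further apart. At that minimum, 65 of 96 members (67.7%) had a peak in both replicates, against 39.5% of protein-coding genes and 69.0% of CpG-rich ones. Among these members were 6 of 7 core subunits, 20 of 31 accessory subunits and 4 of 8 assembly factors of complex I. In complexes II, III, IV and V the counts were 4 of 4, 8 of 9, 10 of 20 and 13 of 17.

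**Figure D2:**
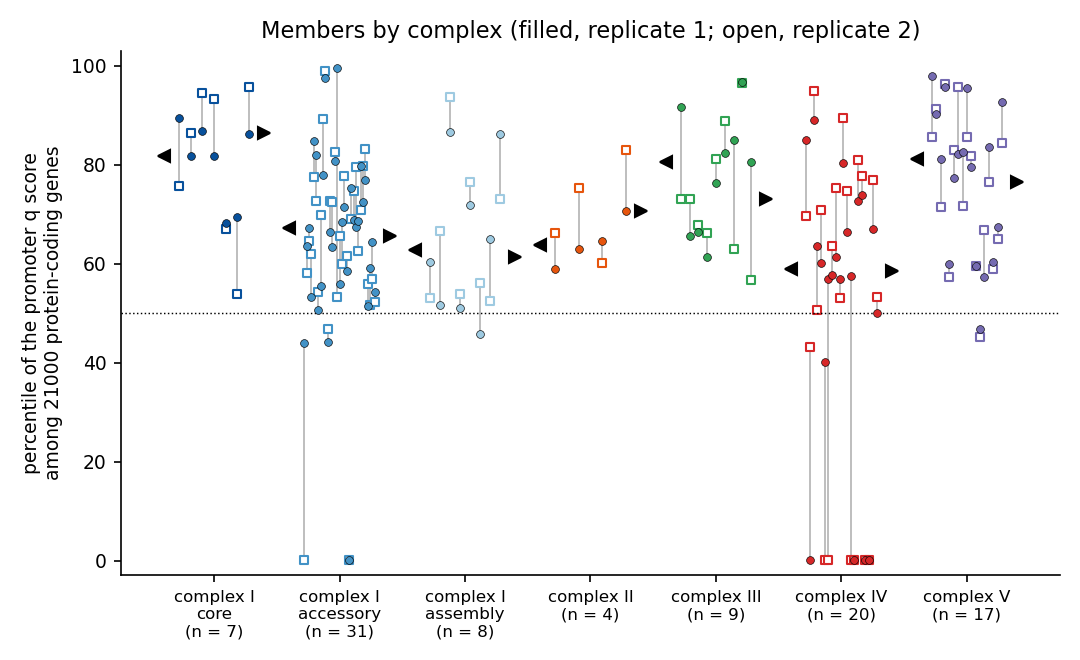
Percentile of the promoter q score among the 21000 protein-coding genes for each member, with replicate 1 filled, replicate 2 open and a line joining both, in columns by complex. Black triangles give the median of a column in replicate 1 (left) and replicate 2 (right), genes without a peak lie at 0, and 7 of the 20 genes of complex IV have 1 or both values there.

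The strongest promoter peak of the list by mean rank was that of Ndufa7, an accessory subunit of complex I. Its q score was 526 in replicate 1 and 256 in replicate 2, which ranked 479 and 237 among the peaks of the lists, and its percentile was 98.2 ± 0.946 (SD, n = 2). The peak of replicate 1 spanned chr17:33821576-33825794 and also covered the start of Rps28, a cytosolic ribosomal protein gene that starts 10 bp away on the other strand. Uqcrh, the hinge subunit of complex III, followed with 496 and 192. Its peaks also covered the start of Lrrc41, 199 bp away on the other strand. Atp5d, the delta subunit of complex V, had 458 and 190, and Cox5a of complex IV had 338 and 174. Atp5a1, the alpha subunit of complex V, had 547 and 121. The peaks of Atp5a1 also covered the start of Haus1, 117 bp away on the other strand. The values of Uqcrh differed little between lists in percentile, 96.7 and 96.4, whereas those of Atp5a1 had an SD of 8.69 around 91.7.

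Atp5d and Ndufb10 stood apart by the width of their peaks. The peak at Atp5d in replicate 1 was 35920 bp wide, chr10:80126311-80162230, and held the start sites of 3 genes. In replicate 2 the highest score within 2 kb belonged to a peak of 18231 bp that began 1699 bp from the start site, and a separate peak of 2222 bp covered the start site with a q score of 165. Ndufb10, an accessory subunit of complex I, had the highest q score of all members in replicate 1, 785. The peak was 9053 bp wide, with its midpoint 3958 bp downstream of the start site. It held the start sites of 6 genes and the snoRNA genes Snora64 and Snora78, so its score cannot be assigned to Ndufb10. The highest score of the cytosolic ribosomal protein genes in replicate 1 was also 785. In replicate 2 the peak of Ndufb10 was 3129 bp wide and scored 47.7, so the percentile of Ndufb10 varied by 32.7 (SD) around 76.4. The rank of Ndufb10 rested on replicate 1.

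Across complexes, the highest and lowest members by mean rank had these values. In the core of complex I, Ndufv2, an iron-sulfur subunit of the NADH-binding module, had q scores of 309 and 181, and Ndufv1, which holds the flavin of that module, had 190 and 48.3. Among assembly factors, Ndufaf3 had 312 and 162 and Ndufaf6 had 66.6 and 52.8. In complex II, the membrane anchors were at both ends by mean rank, Sdhd with 198 and 113 and Sdhc with 163 and 60.1. In replicate 1, however, Sdhb and Sdha had lower scores than Sdhc. Complex II spanned a narrow range, and its catalytic subunits Sdha (132 and 72.1) and Sdhb (155 and 92.5) lay close by. In complex III the lowest by mean rank was Uqcrb, with 145 and 71.9, although Uqcrq and Uqcrfs1 had lower scores in replicate 2, 53.3 and 65.1. In complex V the lowest was Atp5k, which encodes the e subunit at the interface of synthase dimers, with 70.7 and 36.5. Both of its scores were below those of every other gene of complex V. The lowest of complex I with a peak in both replicates was Ndufa8, an accessory subunit, with 60.1 and 38.7.

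Most peaks were centred on the start site. Relative to the start site, the median edges were -757 and 763 bp in replicate 1 and -659.5 and 675 bp in replicate 2, where negative is upstream. The midpoint lay within 500 bp of the start site for 74 of 91 members in replicate 1 and 79 of 88 in replicate 2. Median widths were 1526 and 1356.5 bp, near the 1648 and 1333 bp of all protein-coding genes with a peak. Peaks wider than 3 kb were found at 15 members in replicate 1 and 4 in replicate 2. When such peaks were left out of both lists, 74 members had a peak in both replicates. The share over all protein-coding genes was not computed at this setting.

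**Figure D3:**
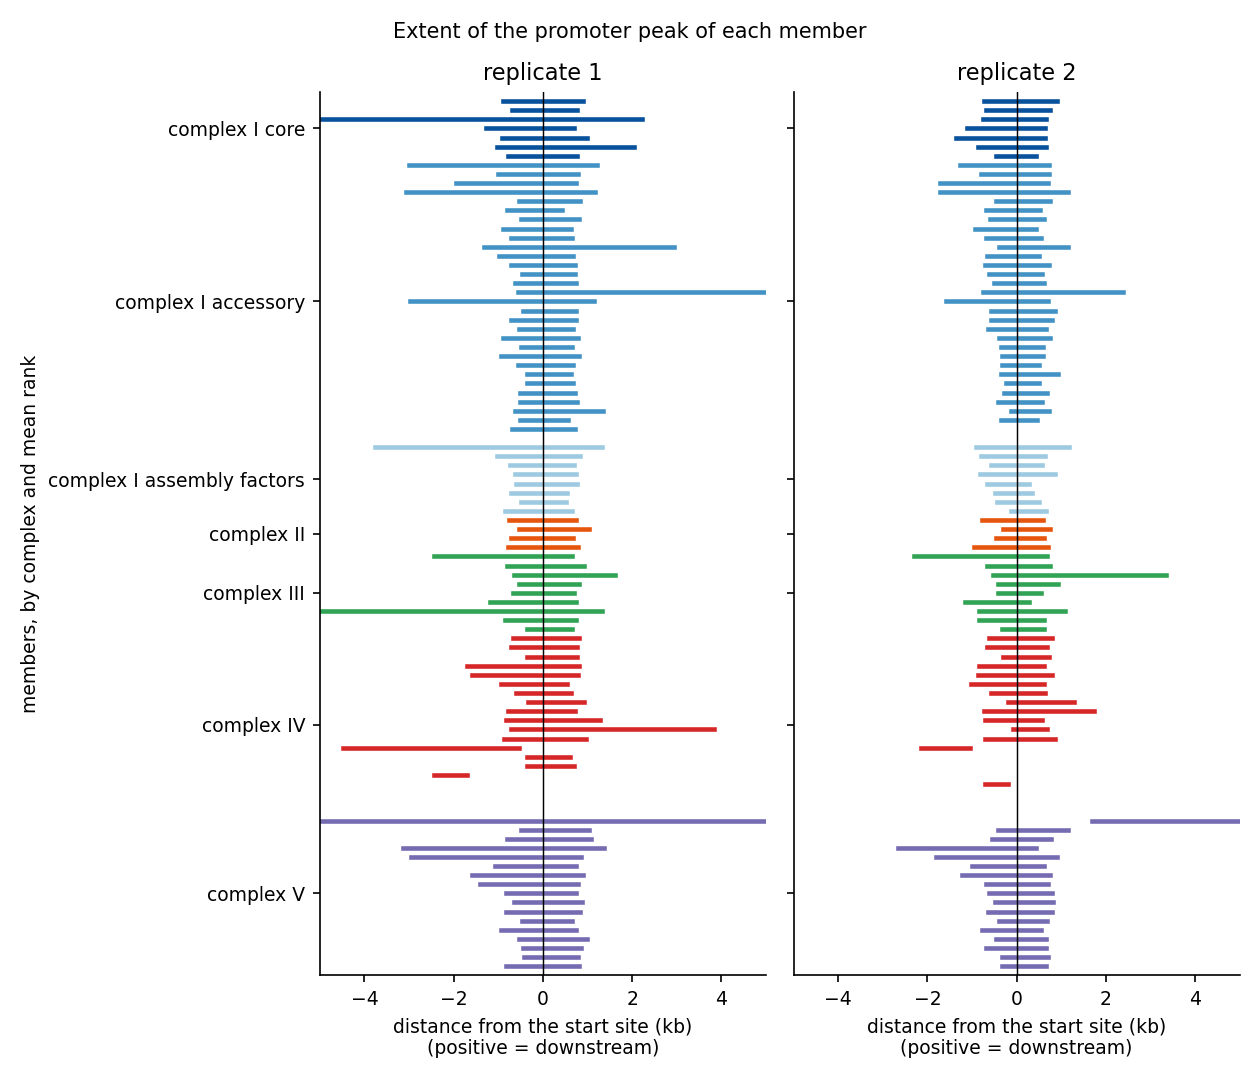
Extent of the promoter peak of each member relative to its start site in kb, positive downstream, in replicate 1 (left) and replicate 2 (right), with 1 line per member, coloured and grouped by complex and ordered by mean rank within it. Lines end at the frame where a peak goes beyond 5 kb; most are centred near 0, and the gaps in complex IV are its genes without a peak.

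Many members share their promoter with another gene. A gene on the other strand started within 1 kb of 33 members (34.4%), at 9 to 883 bp with a median of 110 bp, against 13.9% of protein-coding genes. Of these 33, 32 had a peak in both replicates, and peaks at such promoters cannot be assigned to either gene. The matching share over all protein-coding genes with such a neighbour was not computed, so this count is not a trait of the members. Atp5j, for the coupling subunit F6 of complex V, and Gabpa, for the DNA-binding subunit of GABP, start 102 bp apart and had the same peak in each list, with q scores of 254 and 110. Among the 60 members with no other start site within 2 kb, 52 (86.7%) had a peak in both replicates. The share was 57.9% over all protein-coding genes, with or without such neighbours.

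The testis isoforms among the members did not behave as 1 group. Cox6b2, a sperm isoform of Cox6b1, had a peak over its start site in both replicates, with a q score of 126 in replicate 1 and 66.4 in replicate 2. Its log2 ratio was 4.39 in replicate 1 and 2.29 in replicate 2. Its widely expressed partner Cox6b1 had a score of 121 in replicate 1 and no peak in replicate 2, where the nearest lay 7469 bp away. Cox6b1 and Cox6b2 therefore had near-equal scores in replicate 1 and differed in replicate 2. Cox7b2 had no peak in either list, and the nearest peaks lay 109363 and 109606 bp away. Its partner Cox7b, on the X chromosome, had a score of 124 in replicate 1 and no promoter peak in replicate 2, with the nearest 3479 bp away. Cox8c had none, with the nearest at 20067 and 20248 bp, whereas Cox8a had 215 and 99.0. In all, 1 of 3 testis isoforms and 1 of 3 partners were occupied in both replicates, and the other 2 partners in replicate 1 alone.

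Isoforms of other tissues had lower q scores than their partners, or no peak, in every pair. In muscle, Cox7a1 had q scores of 121 and 47.5 against 260 and 138 for Cox7a2. Cox6a2 had a score of 47.8 in replicate 1, in a peak 1703 bp upstream of its start site, and none in replicate 2, against 138 and 82.6 for Cox6a1. Cox8b, whose promoter holds 2 CpG, had no peak within 2 kb, and the nearest lay 2859 and 2147 bp away. Cox4i2, used in lung, had no promoter peak in replicate 1 and a score of 33.9 in replicate 2, against 297 and 79.5 for Cox4i1. Ndufa4l2, induced in hypoxia, had 86.3 and 47.7 in peaks 526 and 1035 bp from its start site, against 176 and 96.7 for Ndufa4. A weaker peak, with a score of 31.2, covered the start site of Ndufa4l2 in replicate 2. The log2 ratio of the scored peaks was not lower in every pair. At Ndufa4l2 it was 5.23 in replicate 1 against 2.98 at Ndufa4, and 2.54 against 2.60 in replicate 2. At Cox4i2 it was 2.999 in replicate 2 against 2.372 at Cox4i1. At Cox7a1 and Cox6a2 it was below that of the partner wherever both had a peak.

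In 6 pairs of other metabolic genes, all 6 widely expressed genes had a peak in both replicates, with the highest scores at Gapdh, 524 and 215, and the lowest at Pgk1, 98.5 and 33.9. Of the 6 testis isoforms, Cyct, the testis cytochrome c, had a peak in both, with 84.6 and 40.8 against 312 and 88.2 for Cycs. Pdha2, of pyruvate dehydrogenase, and Slc25a31, the testis ADP/ATP carrier, had a peak in replicate 1 alone, with 58.6 and 74.9. The glycolytic Pgk2, Ldhc and Gapdhs had none. In replicate 1 alone, 6 of 6 widely expressed genes and 3 of 6 testis isoforms of these pairs had a peak, against 3 of 3 and 1 of 3 of the pairs among the members. The promoters of Pgk2, Ldhc and Gapdhs held 4, 9 and 4 CpG, and those of Pgk1, Ldha and Gapdh 24, 30 and 12. Slc25a31 held 22 CpG. The part of CpG content in these differences was not tested, nor was the difference between the isoform classes.

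**Figure D4:**
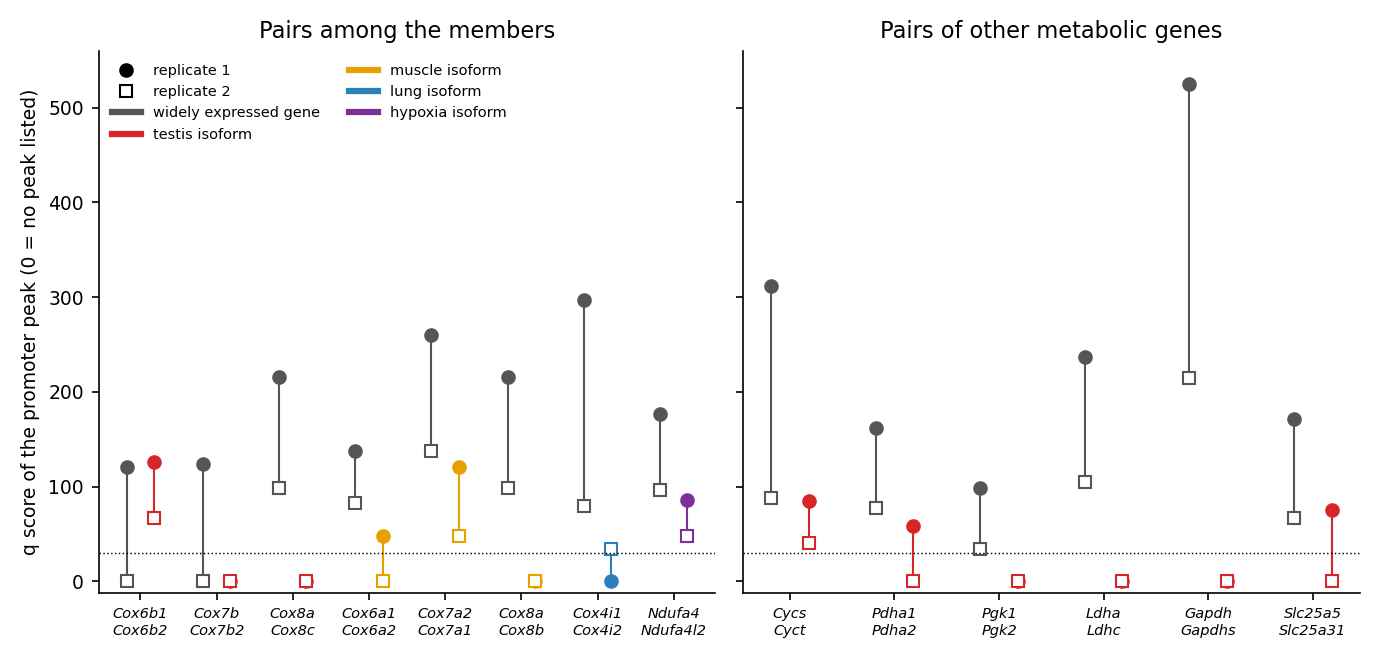
q score of the promoter peak in replicate 1 (filled circle) and replicate 2 (open square) for widely expressed genes (grey, left of each pair) and their tissue isoforms (coloured, right), for pairs among the members and pairs of other metabolic genes, with 0 for no listed peak and a dotted line at the minimum of 30. Cox6b2 is the testis isoform with the highest scores, 126 and 66.4, and 5 of the 9 testis isoforms drawn lie at 0 in both replicates.

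The 3 X-linked members were Ndufa1, Ndufb11 and Cox7b. Ndufb11, an accessory subunit of complex I, had q scores of 116 and 70.7, and was the 1 X-linked member with a peak in both replicates. On the autosomes 86 of 93 members (92.5%) did. Over all 902 protein-coding genes of the X chromosome the share was 30.9%, and over those with a CpG-rich promoter 76.3%. The part of the single X of male cells in these values was not tested.

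Promoter letters differed between the members and other genes. The NRF1 letters were found in 23 of 82 member promoters, 28.0% (Wilson 95% interval 19.5 to 38.6), against 8.88% of the 20488 promoters of protein-coding genes and 15.4% of those of other CpG-rich genes. The YY1 letters were found in 11, 13.4% (7.66 to 22.4), against 3.11% and 4.25%. The ETS letters were found in 19, 23.2% (15.4 to 33.4), against 11.9% and 17.5%, and the interval of the members includes the share of CpG-rich genes. With the letters shortened to CGGAAG the interval, 33.7 to 54.7 around 43.9%, lies above the 31.2% of other CpG-rich genes. The SOX letters were found in 8, 9.76% (5.03 to 18.1), against 8.89% of all promoters, which lies within the interval, and 4.20% of other CpG-rich genes, which lies below it. The like set for other CpG-rich genes is the 54 promoters of CpG-rich members. There the shares were 35.2% for NRF1 (23.8 to 48.5) and 13.0% for YY1 (6.42 to 24.4). They were 20.4% for ETS (11.8 to 32.9) and 11.1%, or 6 promoters, for SOX (5.19 to 22.2). Intervals cover counting error over promoters only. All searches read both strands, and the NRF1, ETS, YY1 and SOX letters do not contain each other. By gene, 22 of the 77 members with a promoter entry held the NRF1 letters and 8 held the SOX letters.

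**Figure D5:**
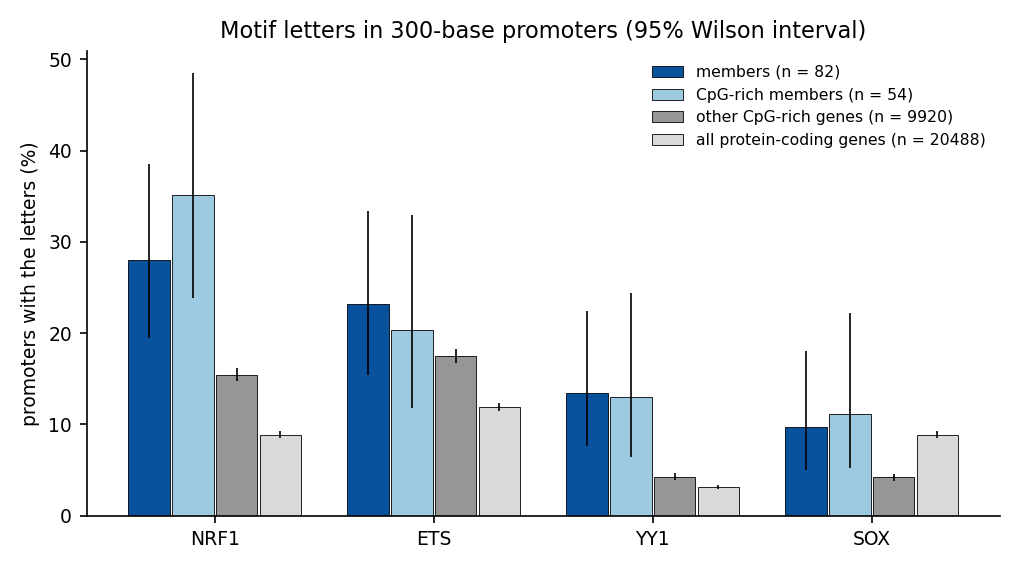
Share of 300-base promoters that hold the NRF1, ETS, YY1 or SOX letters on either strand, in percent, for member promoters, CpG-rich member promoters, promoters of other CpG-rich protein-coding genes and all protein-coding promoters, with 95% Wilson intervals. Member bars lie above the bars of other genes for every motif. For ETS the member interval includes the 17.5% of other CpG-rich genes. For SOX the member bar of 9.76% is close to the 8.89% of all promoters and above the 4.20% of other CpG-rich genes.

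CpG density and peak strength were weakly related within the members. Spearman's rho of the observed to expected CpG ratio and the q score was 0.289 over 75 members in replicate 1 and 0.211 over 72 in replicate 2, across genes of the same libraries. The median ratio was 0.84 for the 72 members with a peak in both replicates and a promoter entry, and 0.56 for the 5 without. The lowest ratio of a member occupied in both was 0.33, at the muscle isoform Cox7a1.

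Other genes of the pathway, taken from a list of 37, had a share like that of the members. Both replicates had a promoter peak at 34 of the 37 (91.9%), and the other 3, Sdhaf4, Slc25a31 and Ppargc1a, had 1 in replicate 1 alone. Over all protein-coding genes the share was 57.9%, and over CpG-rich ones it was 90%, close to that of this list. Among the regulators, Nrf1 had q scores of 540 and 211 and Yy1 had 509 and 237, which placed both among the highest scores of the members in each list. Tfam, which maintains mitochondrial DNA, had 250 and 57.3, and Esrra, an orphan nuclear receptor, had 180 and 66.5. The coactivators Ppargc1a and Ppargc1b had lower scores, 79.3 with none in replicate 2, and 60.2 and 38.7. The Ppargc1a peak lay near a start site inside the gene. With the outer end of the gene as its only start site, Ppargc1a had a promoter peak in both replicates. Cox20, Cox11 and Ttc19, assembly factors of complexes IV and III, had 510 and 158, 400 and 191, and 396 and 183.

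ChIP-nexus trims the precipitated DNA with an exonuclease toward the bound protein. Its lists held 110 and 18 peaks on mouse chromosomes, and none lay within 2 kb or 5 kb of a start site of any member. The study's reporting summary lists far fewer unique reads for these libraries than for ChIP-seq. With lists this short, the absence of a ChIP-nexus peak at a member says little about occupancy.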

How the data were processed

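The authors aligned reads to mm10 with Novoalign, placing multi-mapping reads at random, removed duplicates with Picard and called peaks per replicate. For ChIP-seq the USeq caller was used with a q score above 30. Since no column names come with these lists, the p score, q score and log2 ratio were recognised by their order, their values and the stated threshold. The p score and q score were made by the authors' caller as a negative log10 of a p-value scaled up by 10, and the deposited log2 ratio as ChIP over input. The deposited ChIP-nexus lists give a fold enrichment ratio and −log10 q from MACS2 2.1.1, and only their positions were used here. The submitters' notes name Novoalign, Picard, MACS2 and bedtools. The lists give no read counts, and the read totals of the study's reporting summary were not used.

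Start sites were those of 45756 curated RefSeq transcripts of 26180 genes (GRCm38). A gene's peak was that with the highest q score whose edge lay within 2 kb of a start site. 1 further coding symbol of the rule, Ndufb4b, has only a predicted transcript and was not counted. Each peak list is 1 replicate, shares and medians are given per replicate or as mean ± SD, and no test was made. Composition and motifs used RefSeq promoters of 300 bases (GRCm38.p6), which 77 members (80.2%) and 80.3% of protein-coding genes had. Motif intervals are Wilson 95% intervals. The overlap code was tested on simulated peaks, where 600 of 600 planted inside and 0 of 400 planted outside the window were called, and checked against bedtools 2.31.1. Python 3.11.15, pandas 2.3.3 and scipy 1.17.1 were used.

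The members and lists were chosen with earlier results of these data known. Named genes were all isoform pairs, members without a peak in both replicates, the 5 members with the highest mean rank, the highest and lowest of each complex and the fixed list of other pathway genes. Atp5b, Atp5j, Ndufa8, Ndufb10, Ndufb11, Ndufs6, Sdha, Sdhb, Uqcrc1, Uqcrfs1, Uqcrq and the neighbours Rps28, Snora64 and Snora78 were named after their values were seen. Alternatives covered the score minimum, window, start sites, members, motif letters and leaving out each replicate.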

Additional observations from a re-analysis of the deposited data

How the results depend on the processing

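The count of 87 members with a promoter peak in both replicates ranged from 65 with a q score above 60 to 92 with a peak in at least 1 replicate. Without promoters shared with another gene it was 52, of 60 members, which follows from fewer members. It was 88 and 91 when either replicate was left out, 86 of 94 members with GENCODE M21 start sites and 84 with 1 start site a gene. Alternatives chosen after seeing the data gave 86 when a peak had to cover a start site, 74 without peaks wider than 3 kb and 87 without Ndufb4c. With a q score above 60, 4 of the 8 assembly factors of complex I and 0 of the 6 testis isoforms outside the members had a peak in both replicates, in place of 8 and 1. Within 5 kb, 2 of 3 somatic partners of the testis isoforms did, in place of 1, since Cox7b gained a peak, and 17 of 20 genes of complex IV, in place of 13. With either replicate left out, the somatic partners numbered 1 to 3 and the testis isoforms outside the members 1 to 3, so both counts depend on replicate 2. With shortened letters, the NRF1 share rose to 46.3% (GCANGCG) and the ETS share to 43.9% (CGGAAG), against 21.7% and 21.6% of all promoters and 34.6% and 31.2% of those of other CpG-rich genes, and the YY1 share was 14.6% (AAGATGG), against 6.30% and 6.36%. The median q score, a mean of 129 over replicates, was 79.7 without replicate 1 and 178 without replicate 2, and 113 to 133 under the other alternatives. Of 87 genes covered by the naming rule or named after their values were seen, snoRNA genes left out, 21 changed their number of replicates with a peak at a q score above 60, 5 within 5 kb, 1 within 1 kb and 5 with 1 start site a gene. Without peaks wider than 3 kb 10 did, among them Ndufa7, Uqcrh and Atp5d, each then with a peak in 1 replicate, and Ndufb10, Yy1 and Gapdh, then with none. No paired analysis was possible because no result comes from a test, and 2 pairs of replicate differences could not reach a p below 0.5. The peak lists give no read counts. The second ChIP-seq replicate had fewer peaks and lower scores although the study lists more unique reads for it, and the cause was not tested.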
